A study of Solanum lycopersicum with 6 samples.

Results

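The ethylene receptor genes of tomato and the central genes that carry the ethylene signal onwards were followed in slgols2 and WT fruit, in the part of the pericarp (fruit wall) that forms the shoulder next to the stalk. The set was given as 10 loci with their names, 7 receptors (ETR1, Solyc12g011330; ETR2, Solyc07g056580; NR, Solyc09g075440; ETR4, Solyc06g053710; ETR5, Solyc11g006180; ETR6, Solyc09g089610; ETR7, Solyc05g055070) and CTR1 (Solyc10g083610), EIN2 (Solyc09g007870) and EIL1 (Solyc06g073720), out of 35768 gene models in the deposited table. The rule for the loci uses their identity and no expression value, although earlier results of these data were known when the set was proposed. The study asked, by its design, which transcripts differ in slgols2 fruit. It holds 3 slgols2 libraries, from plants of the cultivar Ailsa Craig with a CRISPR-Cas9 knock-out mutation in slgols2, and 3 WT libraries of the same cultivar. GolS usually stands for galactinol synthase, which opens the synthesis of sugars of the raffinose family. All fruit was taken at 30 DPA from plants in a greenhouse with long light periods. The sources used here do not give the edited allele, the number of edited lines or the fruits and plants behind a library, so p-values measure only how far these libraries scatter, which may be technical. Values per library are listed in the order of the replicate numbers.

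Ethylene receptors sit in the membrane of the endoplasmic reticulum and repress the response to ethylene as long as the hormone is not bound. They hold the Raf-like kinase CTR1 active, and CTR1 keeps the membrane protein EIN2 from signalling. Binding of ethylene turns the receptors off, EIN2 then signals to the nucleus, and transcription factors of the EIN3 family, in tomato the EIL proteins, switch on the response. In tomato fruit this pathway drives ripening. NR, ETR4 and ETR6 are known as receptors whose transcripts increase when fruit ripens, and a dominant mutation in NR gives the Never-ripe fruit.

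The deposited table holds identifiers only. All 10 names occur in the RefSeq gene table of assembly SLM_r2.1, NR under the synonym ETR3, on the chromosome that the identifier gives and at a rank along it that differs by at most 5% of the chromosome's genes. The gene lengths behind the FPKM values (fragments scaled by gene length and by library depth), found from the steps between values, were 0.81 to 1.15 times the RefSeq gene span for 9 of the 10. For NR the length was 4752 bases, 0.51 times the RefSeq span. Since the lengths come close to whole gene spans with introns, FPKM understates genes with long introns, such as CTR1 with a length of 14972 bases and ETR1 with 10756 bases, when genes are set against each other. Whether similar receptor genes shared reads could not be checked, and the same holds for EIL1 and EIL4, which are neighbours by identifier.

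In the 6 libraries the recovered depth ran from 15590000 to 17940000 fragments, and the 10 genes together took 11483 to 19095 reads in a library. Across the tested gene models, slgols2 replicate 3 correlated with slgols2 replicates 1 and 2 at 0.849 and 0.869 only, while its coefficients with the WT libraries were 0.878 to 0.903, so this library stood closer to WT than to its own group. Genes are not independent, and these coefficients describe the libraries only. The FPKM sum of 12 recalled heat shock loci was 23994, 15388 and 623 in the slgols2 libraries, against 1163, 687 and 698 in the WT libraries. The FPKM sum of 9 recalled seed loci was 0.80, 45.5 and 1.80 in the slgols2 libraries, against 5.36, 7.70 and 29.7 in the WT libraries. Of these seed loci 6 to 8 were above 0 in each library. Neither list carried names to look up in the reference. The level of the edited gene is not reported, because no source used here paired it with an identifier, so the knock-out label was not checked on it. The tissue label was not checked either, since no pericarp markers were among the lists.

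No difference between slgols2 and WT fruit passed the test for any of the 10 genes, and for 7 of them the SD between libraries of a genotype was larger than the difference itself. All 10 passed the filter of a mean of at least 1 FPKM, and 0 passed an adjusted p of 0.05 in limma fitted over the 15695 tested gene models, of which 36 (0.229%) passed. Adjusted p-values of the 10 genes lay between 0.504 and 0.906. At an unadjusted p of 0.05 the count was also 0 of 10, against 12.0% of all tested gene models. In limma-voom on the recovered reads 0 of 10 were called, where only 1 of 15693 gene models passed at all. At an unadjusted p of 0.05 limma-voom also had 0 of 10. Its share over all gene models at that threshold was not computed. The mean of log2(FPKM + 1) was higher in slgols2 for 5 genes and lower for 5. Their median log2 difference was -0.02, against 0.00 over all tested gene models. In a simulation of this comparison on 15695 genes, 34% of genes changed by 1 on the log2 scale were called and 88% of those changed by 4. The changed genes were drawn from those with a mean log2(FPKM + 1) above 2, which leaves out genes as low as ETR5 and CTR1. A change of 2-fold in single genes would thus often be missed, and in low genes 2-fold is less than 1 on this scale.

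**Figure D1:**
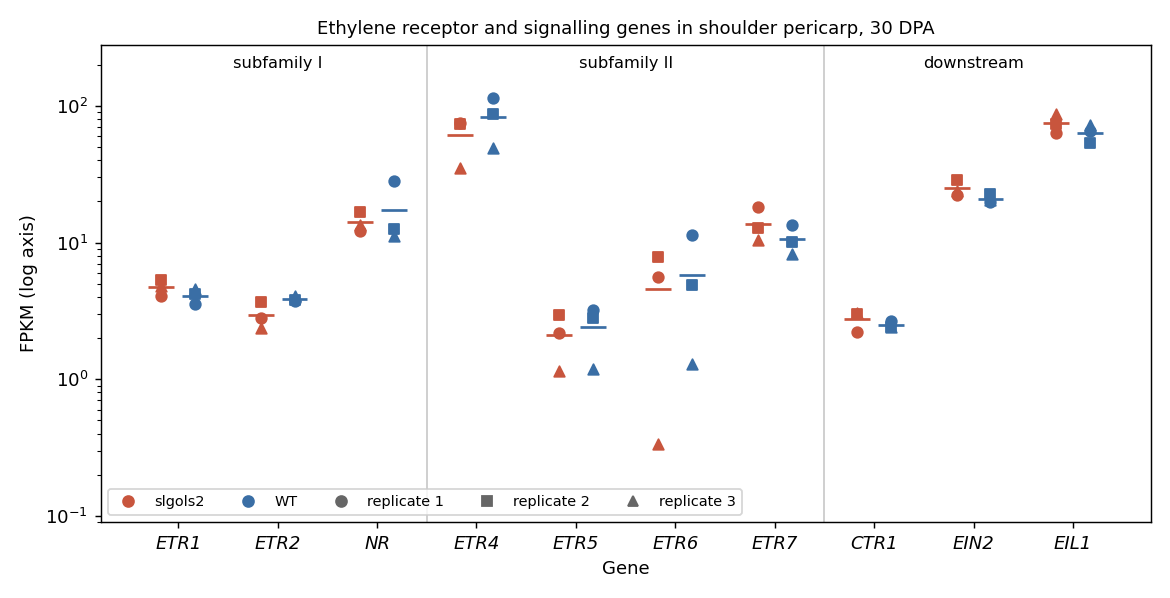
FPKM (log axis) of the 7 receptor genes and of CTR1, EIN2 and EIL1 in 3 slgols2 (red) and 3 WT (blue) libraries, with marker shapes for the replicate number and a line at each group mean. ETR2 is the gene whose groups do not overlap, and ETR6 spans 0.334 to 11.3 FPKM.

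Among the receptors of subfamily I, those with a conserved histidine kinase domain, ETR1 was steady. It had 4.06, 5.29 and 4.82 FPKM in the slgols2 libraries, against 3.53, 4.17 and 4.54 FPKM in the WT libraries. The groups overlapped, and the highest library was 1.501 times the lowest. The log2 difference was 0.17 (standard error 0.15, limma adjusted p = 0.700), and its 95% interval ran from -0.20 to 0.55.

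ETR2, another receptor of this subfamily, had 2.80, 3.65 and 2.37 FPKM in the slgols2 libraries. In the WT libraries it had 3.74, 3.79 and 4.07 FPKM. All 3 slgols2 values lay below all 3 WT values, and slgols2 replicate 2 was only just below WT replicate 1. The log2 difference of -0.32 with a standard error of 0.16 did not pass (limma adjusted p = 0.504, the lowest of the 10), with a 95% interval from -0.71 to 0.07. ETR2 was the 1 of 10 genes whose groups did not overlap, while 19.2% of all tested gene models were separated in this way, so the count is no more than the background. The 3 slgols2 values rested on 331, 386 and 255 reads and the WT values on 430, 431 and 418.

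NR (Never-ripe, also called ETR3) is a receptor without the receiver domain that ETR1 and ETR2 carry. It had 12.2, 16.6 and 13.4 FPKM in the slgols2 libraries, against 28.0, 12.5 and 11.2 FPKM in the WT libraries. WT replicate 1 was higher than every other library, and the other 5 lay close together, with both genotypes mixed. The log2 difference was -0.17 (standard error 0.36, limma adjusted p = 0.880; 95% interval from -1.03 to 0.69). Without WT replicate 1 it was 0.22 (limma adjusted p = 0.892, against 0.606 to 0.972 over the alternatives run), so the direction for NR rested on that library.

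In subfamily II, whose members have lost residues of the histidine kinase domain, ETR4 was the most abundant receptor transcript per length in every library. It had 74.8, 74.0 and 34.9 FPKM in the slgols2 libraries, against 113.7, 87.1 and 49.1 FPKM in the WT libraries. The library numbered 3 was the lowest of its group in both genotypes, and the groups overlapped. Means were 61.2 ± 22.8 FPKM in slgols2 and 83.3 ± 32.5 FPKM in WT (SD, n = 3 each). The log2 difference of -0.44 had a standard error of 0.43 (limma adjusted p = 0.723) and a 95% interval from -1.47 to 0.60. It was -0.08 without slgols2 replicate 3, -0.17 without WT replicate 1 and -0.77 without WT replicate 3, where the adjusted p was 0.911, 0.970 and 0.573 (limma; 0.284 to 0.970 over the alternatives run).

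ETR6 varied most. It had 5.55, 7.89 and 0.334 FPKM in the slgols2 libraries, against 11.3, 4.92 and 1.28 FPKM in the WT libraries. The highest library was thus 33.8 times the lowest. The lowest value rested on 24 reads, and its exact 95% Poisson interval, from 0.214 to 0.497 FPKM, lay below the interval of the next lowest library, WT replicate 3, from 1.03 to 1.58 FPKM on 88 reads. These intervals cover counting error only. The mean was 4.59 ± 3.87 FPKM in slgols2 and 5.83 ± 5.06 FPKM in WT (SD, n = 3 each), so within each genotype the SD was nearly as large as the mean. The log2 difference of -0.37 had a standard error of 0.88 (limma adjusted p = 0.899), and the 95% interval, from -2.50 to 1.77, holds changes of several fold either way. Without slgols2 replicate 3 the difference was 0.47, and without WT replicate 1 it was 0.21 (limma adjusted p = 0.711 and 0.982, against 0.699 to 0.982 over the alternatives run).

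ETR5, with the lowest mean FPKM of the 10, had 2.18, 2.95 and 1.14 FPKM in the slgols2 libraries, against 3.23, 2.78 and 1.196 FPKM in the WT libraries. The lowest value of each genotype rested on 110 reads, again in the library numbered 3. The log2 difference was -0.13 (standard error 0.33, limma adjusted p = 0.906; 95% interval from -0.93 to 0.68), and it turned to 0.06 without WT replicate 1 and to 0.11 without slgols2 replicate 3 (limma adjusted p = 0.988 and 0.851, against 0.545 to 0.995 over the alternatives run).

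ETR7 had 18.1, 12.7 and 10.4 FPKM in the slgols2 libraries, against 13.3, 10.03 and 8.26 FPKM in the WT libraries. The groups overlapped, since WT replicate 1 lay above slgols2 replicates 2 and 3. The log2 difference of 0.34 with a standard error of 0.26 did not pass (limma adjusted p = 0.647; 95% interval from -0.29 to 0.98). It ran from 0.14 without slgols2 replicate 1 to 0.51 without slgols2 replicate 3 (limma adjusted p = 0.889 and 0.285, against 0.285 to 0.889 over the alternatives run).

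**Figure D2:**
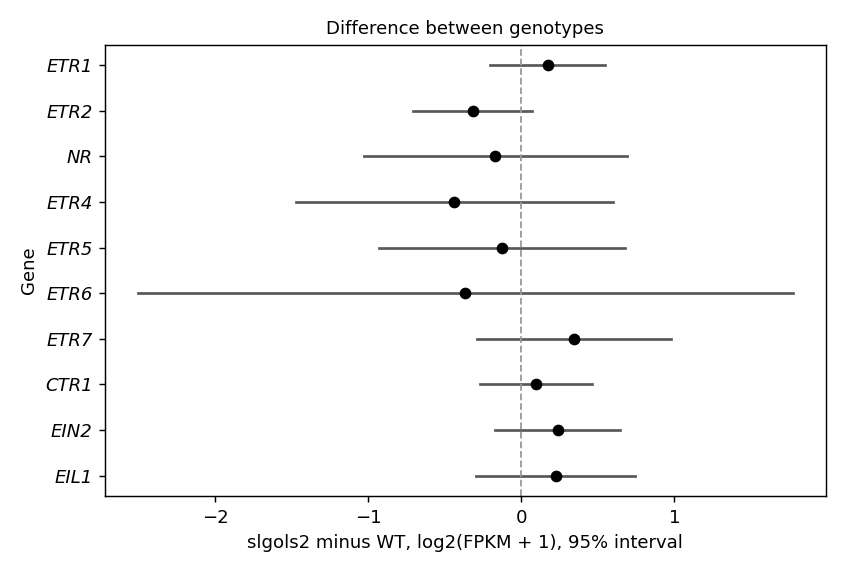
Difference between slgols2 and WT on the log2(FPKM + 1) scale for each gene, with its 95% interval from limma (3 libraries a group). Every interval includes 0, and the interval of ETR6 is the widest, from -2.50 to 1.77.

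Downstream of the receptors, CTR1, EIN2 and EIL1 varied less between libraries than NR and the subfamily II receptors. CTR1 had 2.20, 3.01 and 3.05 FPKM in the slgols2 libraries, against 2.68, 2.41 and 2.41 FPKM in the WT libraries. The lowest and the highest libraries were both slgols2. The log2 difference was 0.09 (standard error 0.15, limma adjusted p = 0.842; 95% interval from -0.27 to 0.46).

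EIN2 had 22.1, 28.6 and 24.0 FPKM in the slgols2 libraries, against 19.7, 22.6 and 20.3 FPKM in the WT libraries. WT replicate 2 lay above slgols2 replicate 1, and otherwise the slgols2 values were the higher ones. The log2 difference of 0.24 with a standard error of 0.17 did not pass (limma adjusted p = 0.618; 95% interval from -0.17 to 0.65).

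EIL1 had 62.7, 74.1 and 87.4 FPKM in the slgols2 libraries, against 65.0, 53.3 and 72.9 FPKM in the WT libraries. The groups overlapped, and slgols2 replicate 3, the library in which ETR4, ETR5 and ETR6 were lowest, had the highest EIL1 value. The log2 difference was 0.22 (standard error 0.21, limma adjusted p = 0.714; 95% interval from -0.29 to 0.74). Without WT replicate 2 it was 0.10, without slgols2 replicate 3 it was 0.11 and without slgols2 replicate 1 it was 0.34.

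Ordered by their mean FPKM over all 6 libraries, the genes ran from ETR4 (72.3) and EIL1 (69.2) through EIN2 (22.9), NR (15.7), ETR7 (12.1), ETR6 (5.21), ETR1 (4.402), ETR2 (3.40) and CTR1 (2.62) to ETR5 (2.25). Only between EIL1 and EIN2 did neighbours in this order have ranges that did not overlap over the 6 libraries. ETR4 was above EIL1 in 3 of 6 libraries, so the order of these leading genes is not settled. NR was above ETR7 in 5 of 6 libraries and ETR7 above ETR6 in 6 of 6. The whole order depends on the gene lengths behind FPKM, which place genes with long introns, such as CTR1 and ETR1, too low.

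The FPKM sum over the 7 receptors was 119.7, 123.2 and 67.3 in the slgols2 libraries, against 176.8, 125.3 and 79.7 in the WT libraries. Means were 103.4 ± 31.3 FPKM in slgols2 and 127.3 ± 48.6 FPKM in WT (SD, n = 3 each), and the groups overlapped. On the log2(FPKM + 1) scale the sum differed by -0.27, but by 0.0062 without slgols2 replicate 3, by -0.0022 without WT replicate 1 and by -0.57 without WT replicate 3. The difference in the sum of subfamily I was -0.16 and turned to 0.095 without WT replicate 1, and that of subfamily II was -0.31 and turned to 0.043 without slgols2 replicate 3. ETR4 alone made up 58.1 ± 5.63% of the sum in slgols2 and 65.2 ± 4.02% in WT (SD, n = 3 each). All shares of the sum depend on the gene lengths behind FPKM. These were 3603 bases for ETR4 and 4752 for NR, but 5897 for ETR5, 6592 for ETR2 and 10756 for ETR1. Genes with long introns are thus understated in the shares. ETR7 made up 15.1%, 10.3% and 15.4% in the slgols2 libraries, against 7.54%, 8.00% and 10.4% in the WT libraries, and the groups overlapped narrowly. Subfamily I made up 22.4 ± 7.51% of the sum in slgols2 and 20.4 ± 4.31% in WT (SD, n = 3 each). Its summed level was 19.0, 25.6 and 20.6 FPKM in the slgols2 libraries and 35.3, 20.4 and 19.8 FPKM in the WT libraries. The libraries numbered 3 had the lowest receptor sums of their groups. The FPKM sum of subfamily II was 46.7 in slgols2 replicate 3 and 59.8 in WT replicate 3. The remaining libraries had 97.6 to 141.5. In bulk tissue, fewer cells with a transcript and less transcript per cell cannot be told apart.

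**Figure D3:**
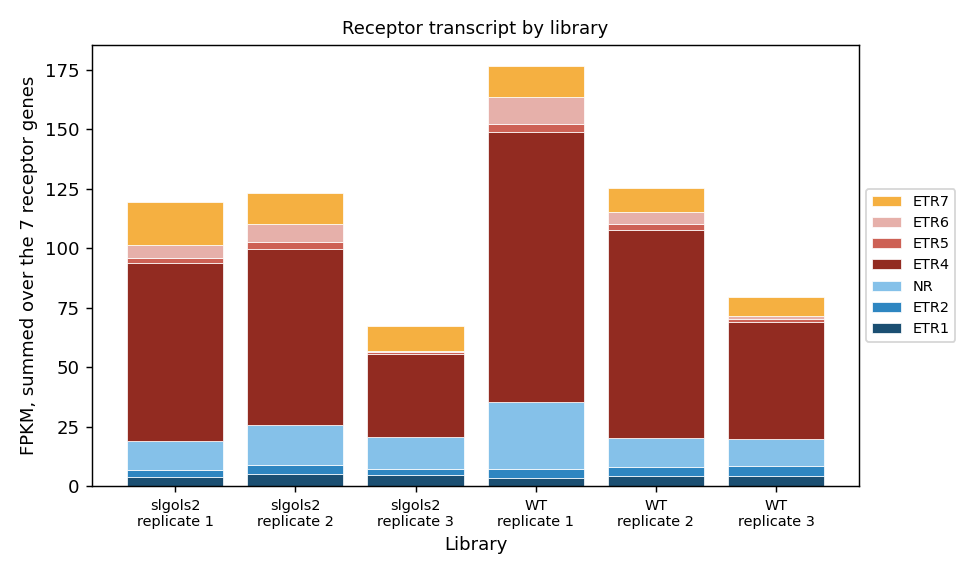
FPKM of the 7 receptor genes stacked for each library, slgols2 at the left and WT at the right. ETR4 is the largest block everywhere, and the sums of slgols2 replicate 3 (67.3) and WT replicate 3 (79.7) are the lowest.

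The 10 genes were unlike each other in how far they varied within a genotype. The pooled within-group SD of log2(FPKM + 1) was 0.14 for CTR1, 0.15 for EIN2, 0.15 for ETR1, 0.17 for ETR2 and 0.23 for EIL1, all below the median of 0.28 over the tested gene models. It was 0.35 for ETR7, 0.48 for ETR5, 0.51 for NR, 0.61 for ETR4 and 1.35 for ETR6, and 98.3% of tested gene models had a lower SD than ETR6. The added 1 makes this SD smaller for genes of a few FPKM. On the FPKM scale itself, with both genotypes together, the highest library was 1.39 times the lowest for CTR1 and 1.45 for EIN2. The ratio was 1.64 for EIL1, 1.72 for ETR2, 2.19 for ETR7, 2.49 for NR, 2.83 for ETR5 and 3.26 for ETR4. By these measures ETR1, ETR2, CTR1, EIN2 and EIL1 were the steadier genes. Within slgols2 alone, however, the ratio was 1.37 for NR, against 1.39 for CTR1 and EIL1 and 1.54 for ETR2. The ratio of 2.49 for NR rested on WT replicate 1.

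The levels of ETR4, ETR5 and ETR6 were alike in their order over the libraries. By the closest other gene over the 6 libraries, ETR4 and ETR6 had a Pearson r of 0.96 (Spearman rho 0.77) and ETR5 and ETR6 one of 0.96 (rho 0.94), on log2(FPKM + 1). NR was also closest to ETR6, at 0.63 (rho 0.60), and ETR7 likewise, at 0.59 (rho 0.66). Among the steady genes ETR1 and EIN2 were closest, at 0.82 (rho 0.83), and CTR1 and EIL1, at 0.70 (rho 0.89). ETR2, also among the steadier genes, was closest to ETR4, at only 0.54 (rho 0.31). When the 2 libraries farthest from the median of 1 gene of the pair were left out, r over the other 4 was 0.85 or 0.65 for ETR4 and ETR6, depending on the gene whose median was used, and 0.73 either way for ETR5 and ETR6. It was -0.27 by the median of NR and 0.97 by that of ETR6 for this pair, 0.72 by ETR7 and 0.08 by ETR6, 0.12 by CTR1 and 0.59 by EIL1, and 0.22 either way for ETR1 and EIN2. For ETR2 and ETR4 it was -0.72 by the median of ETR2 and -0.40 by that of ETR4. The r of the pairs of ETR2, NR, ETR7 and CTR1 thus changed with the libraries left out, and that of ETR1 and EIN2 fell. Leaving out the libraries farthest from the median narrows the range of a gene, which can by itself lower r. The fall therefore cannot show what the closeness of ETR1 and EIN2 rested on. The r and rho values only describe 6 libraries of similar depth, and each r over the 6 is the highest of 9 for its gene. For 4 of the 10 genes, ETR4, ETR5, ETR6 and ETR7, the library numbered 3 was the lowest of its group in both genotypes, against 9.28% of all tested gene models. Nothing in the labels says what the numbers share, and over all genes slgols2 and WT libraries with the same number did not deviate together.

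**Figure D4:**
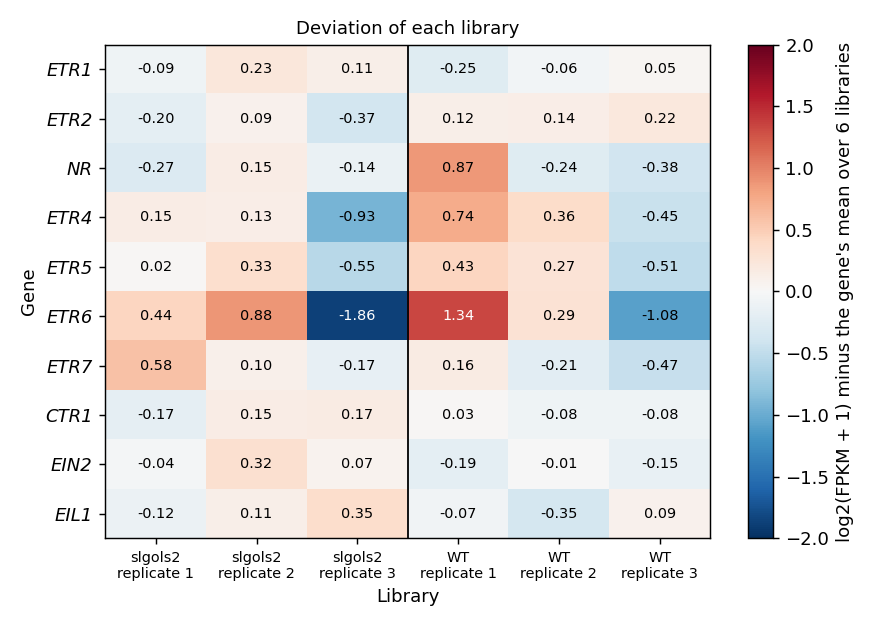
log2(FPKM + 1) of each gene in each library minus the gene's mean over the 6 libraries, slgols2 at the left and WT at the right. ETR4, ETR5 and ETR6 are below their means in both libraries numbered 3, down to -1.86 for ETR6 in slgols2 replicate 3, while EIL1 is at 0.35 and 0.09 there.

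Other genes of the pathway were described from 3 lists of recalled loci. The list of other signalling genes (further EIL factors, the EBF F-box proteins that degrade them, CTR kinases and GR) had 8 loci, of which 6 matched the reference in place and 7 were tested. None passed in limma or limma-voom, 0 had an unadjusted p under 0.05 in either, and 6 had a higher and 1 a lower mean in slgols2, with a median log2 difference of 0.18. EIL4, at the locus next to EIL1, had 76.7, 94.1 and 119.1 FPKM in the slgols2 libraries, against 82.5, 72.2 and 61.6 FPKM in the WT libraries (log2 difference 0.41, limma adjusted p = 0.549). EBF1 had 16.4, 32.6 and 10.7 FPKM in the slgols2 libraries, against 39.1, 17.6 and 7.39 FPKM in the WT libraries (log2 difference 0.04, limma adjusted p = 0.987). As for ETR4, ETR5, ETR6 and ETR7, its lowest value in each group stood in the library numbered 3. The same was true of EIL2, EIL3 and the locus recalled as EBF2, whose RefSeq name lies elsewhere. Over all tested gene models this held for 9.28%. EIL4 was instead highest in slgols2 replicate 3 and lowest in WT replicate 3.

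Of 19 loci for ethylene response factors, the transcription factors that act below the EIL proteins, 18 were tested and 17 of those lay at the matching place. None passed, 2 had an unadjusted p under 0.05 in limma and 2 in limma-voom, and 10 had a higher and 8 a lower mean in slgols2 (median log2 difference 0.09). Since 12.0% of all tested gene models had an unadjusted p under 0.05, 2 of 18 is no more than the background. In limma the 2 were ERF.F5 and ERF.F4. ERF.F5 (RefSeq symbol ERF3) had 53.1, 33.2 and 74.2 FPKM in the slgols2 libraries, against 262.5, 96.3 and 197.1 FPKM in the WT libraries, with groups that did not overlap. Its log2 difference was -1.73 (standard error 0.46, limma adjusted p = 0.251). ERF.F4 had 17.4, 52.1 and 132.7 FPKM in the slgols2 libraries, against 219.9, 122.1 and 389.9 FPKM in the WT libraries (log2 difference -2.12, limma adjusted p = 0.381). ERF.C3 had 3.45, 19.5 and 0.105 FPKM in the slgols2 libraries, against 45.0, 16.6 and 2.097 FPKM in the WT libraries (log2 difference -1.54, limma adjusted p = 0.684). The library numbered 3 was the lowest of each group for ERF.C3, ERF.A1 and ERF.E1, and the highest of each group for ERF.F1 and ERF.F4. ERF.A1 was at 0 in both of these libraries and had 1 read in slgols2 replicate 1, so its place rests on very few reads. Over all tested gene models the library numbered 3 was the lowest of both groups for 9.28%. The share for which it was the highest of both was not computed.

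The list of ethylene synthesis genes with E4 and E8 had 10 loci, of which 9 were in the table and 5 were tested. None passed, 2 had an unadjusted p under 0.05 in limma and 2 in limma-voom, and 2 had a higher and 3 a lower mean in slgols2 (median log2 difference -0.04). Over all tested gene models 12.0% had an unadjusted p under 0.05, and the 2 loci here lay in opposite directions. ACS2, a ripening form of the enzyme that makes the ethylene precursor, had 1.24, 0.724 and 2.58 FPKM in the slgols2 libraries, against 7.40, 2.66 and 3.00 FPKM in the WT libraries (log2 difference -1.05, limma adjusted p = 0.397). Its groups did not overlap. Solyc09g089580, the locus recalled as E8, whose RefSeq name lies elsewhere, had 48.6, 75.5 and 46.9 FPKM in the slgols2 libraries, against 32.0, 42.6 and 21.3 FPKM in the WT libraries (log2 difference 0.83, limma adjusted p = 0.394), and here too the groups did not overlap. Groups without overlap were seen for 19.2% of all tested gene models. ACO1, an enzyme of the last step, had 25.1, 123.5 and 178.8 FPKM in the slgols2 libraries, against 175.8, 251.2 and 7.18 FPKM in the WT libraries, so it was low in slgols2 replicate 1 and WT replicate 3. ACO5 had 112.0, 70.0 and 0.039 FPKM in the slgols2 libraries, against 64.2, 65.1 and 8.59 FPKM in the WT libraries. For ACO5 and the E8 locus the library numbered 3 was the lowest of each group, as for 9.28% of all tested gene models. The locus of E4, a gene known to be induced by ethylene at ripening, was listed at 0 in all 6 libraries.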

How the data were processed

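The 6 RNA sequencing libraries were assigned to slgols2 (3) and WT (3) from their titles. As the column names in the file headers say, the authors deposited FPKM values, in 1 table of 35768 gene models. The submitters' processing notes name HISAT2 2.1.0 and DESeq 1.38.3. The sources used here give no counting tool, strand setting, genome build or annotation.

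Depth and read numbers were recovered from the steps between FPKM values of low genes: 96.5% of 1096 low genes gave a whole length within 0.01 bases, and 15693 of 15695 tested genes gave whole reads within 0.02 reads in all 6 libraries. On simulated reads 98.7% of 2626 genes came back exactly.

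For gene models with a mean FPKM of at least 1, limma 3.58.1 (R 4.3.3) was fitted to log2(FPKM + 1), with a single term for genotype and with an intensity trend, two-sided, with Benjamini-Hochberg adjustment at 0.05 over all 15695. Differences on this scale understate changes of low genes. Intervals are limma's unadjusted 95% intervals, and no exact test of 3 against 3 libraries was used, since it cannot go below 0.10. In the simulation, 50 genes changed at each of 4 sizes gave 34%, 58%, 80% and 88% recovered at log2 changes of 1, 2, 3 and 4, with 7 false calls in all. The scatter was drawn independently for each gene, with no shift common to a library.

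All 10 genes are named. Other pathway genes are counted by list and are named where the RefSeq name lies at the matching place, or else marked as lying elsewhere. Correlations were computed with numpy 2.4.6 and scipy 1.17.1. The genes and lists were chosen with earlier results of these data known. ERF.F5, ERF.F4, ERF.C3, ERF.A1, ERF.E1 and ERF.F1 were picked from the lists for description once their values had been seen. So were EBF1, EIL2, EIL3, EIL4, ACS2, ACO5, ACO1 and the E4, E8 and EBF2 loci. Alternatives covered the pseudocount, the filter, scaling, the trend, sample weights, robust fitting, the replicate block, each library left out and, added after seeing the data, limma-voom on the read numbers and leaving out both libraries numbered 3.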

Additional observations from a re-analysis of the deposited data

How the results depend on the processing

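None of the 10 genes was called under any of the 17 alternatives (166 fits of single genes, limma adjusted p from 0.108 to 0.995, 2 of them with an unadjusted p under 0.05). In 159 of these the direction was that of the full comparison. It turned in 7, for NR, ETR5 and ETR6. Over the fits that leave out 1 library, the log2 difference ran from -0.40 to 0.22 for NR, from -0.42 to 0.11 for ETR5 and from -0.999 to 0.47 for ETR6. It kept its direction but ran from 0.09 to 0.26 for ETR1, from -0.44 to -0.21 for ETR2, from 0.04 to 0.21 for CTR1 and from 0.14 to 0.31 for EIN2. With limma's sample quality weights it was 0.093 for ETR5 and 0.33 for ETR6. The same weights gave -0.11 for ETR2, -0.07 for NR, -0.24 for ETR4, 0.29 for ETR1, 0.15 for CTR1 and 0.37 for EIN2 (limma adjusted p = 0.108, unadjusted 0.030), each over 1.5 times from the full comparison. The count over all gene models, 36, was 15 under a filter of 5 FPKM, 55 when no filter was set, 20 for a pseudocount of 0.1, 2028 with sample quality weights, 7 to 279 when 1 library was left out, and, chosen after seeing the data, 1 with limma-voom and 174 without both libraries numbered 3. The filter of 5 FPKM leaves fewer genes to test, and the cause of the change in the count was not tested for any setting. ETR1, ETR2, ETR5 and CTR1 fell under the filter of 5 FPKM and have no value there. With the sample weights, EIL3 was called among 7 tested signalling genes, and ERF.B3, ERF.F4 and ERF.F5 among 18 tested response factors. ACS2 and the E8 locus, whose RefSeq name lies elsewhere, were called among 5 tested synthesis loci. These calls stand beside 2028 of all 15695 gene models under the same weights. Without both libraries numbered 3, ACO4 was called, beside 174 of 15695.

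In the fit with a replicate block 1 gene model passed over the whole table and none of the 10 genes did. Over all genes, same-numbered slgols2 and WT libraries had correlations of -0.15, 0.089 and -0.165 between their departures from their group means. For slgols2 and WT libraries of unlike number the correlations ran from -0.122 to 0.203. With the block, limma's interval was narrower for ETR4, ETR5, ETR6 and ETR7. For ETR6 it ran from -1.33 to 0.60, against -2.50 to 1.77 without the block. For ETR4 it ran from -1.02 to 0.15, against -1.47 to 0.60. The interval was wider for ETR1, ETR2, NR, CTR1, EIN2 and EIL1. Beyond these correlations, whether the replicate numbers pair libraries was not tested. At this depth the lowest value of ETR6 rests on 24 reads, so its level there is known only within its counting interval.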
